A study of Rattus norvegicus with 8 samples.

Results

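The genes described here are 9 enzymes of the methionine, folate and transsulfuration cycles, out of 14506 genes measured: Gnmt, Mat1a, Mat2a, Ahcy, Bhmt, Cbs, Cth, Shmt1 and Mthfd1. They were selected on a measured value, the higher level of Gnmt in growth-restricted litters of these same arrays, and the other 8 were added because they act in the same pathway. The difference of Gnmt between the groups is therefore given as a description with no test, and the other 8 were read from a fit over all genes. Fetal pancreatic islets of Sprague-Dawley rats were profiled on Affymetrix whole-transcript arrays. On embryonic day 18, 4 dams had surgery to produce intrauterine growth restriction (IUGR) and 4 had sham surgery, and the fetal islets were collected on embryonic day 19; the kind of IUGR surgery is not given in the labels. Every array held the pooled islets of 1 litter, so the litter is the replicate. The p-values weigh a group difference against the spread between litters. All values are the deposited log2 expression values, on which a difference of 1 is a 2-fold change.

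Methionine is activated to S-adenosylmethionine, the methyl donor of most methylation reactions, by the methionine adenosyltransferases. Mat1a encodes the form typical of adult liver and Mat2a the form found in most other tissues. Gnmt transfers a methyl group to glycine and so disposes of excess S-adenosylmethionine; it is abundant in liver and is also present in the exocrine pancreas. The product S-adenosylhomocysteine is split by Ahcy to homocysteine, which Bhmt remethylates with betaine, mainly in liver and kidney, or which Cbs and Cth convert to cysteine by transsulfuration. Shmt1 and Mthfd1 load and interconvert one-carbon units on folate in the cytosol. Several of these enzymes are thus known as liver genes, and their values are set beside liver and acinar markers of the same litters.

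The 250 bases upstream of the annotated start are shown for 4 genes: Gnmt, on which the selection rests, Bhmt, with the largest difference, and the related pair Mat1a and Mat2a. They are RefSeq sequences of the rat assembly GRCr8, in the direction of the gene, from chr9:21752032-21752281 (Gnmt, plus strand), chr2:26614430-26614679 (Bhmt, minus strand), chr16:17016918-17017167 (Mat1a, plus strand) and chr4:106053613-106053862 (Mat2a, minus strand). Capitals mark TATAA and CCAAT on either strand, ATTGG being CCAAT read on the other strand.
Gnmt: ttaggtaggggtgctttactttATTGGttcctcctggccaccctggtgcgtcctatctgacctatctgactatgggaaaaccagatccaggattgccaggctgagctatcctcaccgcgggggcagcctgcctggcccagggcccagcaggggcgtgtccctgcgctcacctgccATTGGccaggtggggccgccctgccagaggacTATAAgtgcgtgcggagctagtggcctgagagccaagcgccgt
Bhmt: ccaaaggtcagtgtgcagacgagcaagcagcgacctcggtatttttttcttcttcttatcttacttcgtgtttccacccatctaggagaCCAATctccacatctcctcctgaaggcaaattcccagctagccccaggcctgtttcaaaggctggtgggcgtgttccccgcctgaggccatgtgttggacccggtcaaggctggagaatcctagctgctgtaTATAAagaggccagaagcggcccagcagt
Mat1a: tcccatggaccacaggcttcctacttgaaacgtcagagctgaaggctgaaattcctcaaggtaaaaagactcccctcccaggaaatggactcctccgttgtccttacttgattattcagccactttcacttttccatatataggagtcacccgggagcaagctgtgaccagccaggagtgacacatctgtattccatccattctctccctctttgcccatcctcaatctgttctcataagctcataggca
Mat2a: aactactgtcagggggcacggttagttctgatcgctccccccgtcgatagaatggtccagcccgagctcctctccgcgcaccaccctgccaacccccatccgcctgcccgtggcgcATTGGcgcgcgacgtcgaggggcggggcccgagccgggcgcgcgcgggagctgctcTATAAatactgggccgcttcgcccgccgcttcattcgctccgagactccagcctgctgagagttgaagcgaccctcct
TATAA lay 43 bases before the start of Gnmt, 29 before Bhmt and 78 before Mat2a, counted to its first letter, and was not among the letters of the Mat1a window. The Mat2a window held 29 CpG dinucleotides, against 10 for Gnmt, 8 for Bhmt and 3 for Mat1a, and the median of all 33469 promoter windows was 5. Of the 9 enzymes 8 had a promoter entry. TATAA was found in 4 of the 8 and in 24.0% of all windows, CCAAT in 6 of the 8 and in 34.0% of all windows. These matches describe the letters only, and binding was not measured.

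Litters differed in their marker levels, and these values bear on every result that follows. The mean of 21 liver plasma protein genes was 11.49, 9.49, 10.94 and 8.94 in sham replicates 1 to 4 and 12.04, 11.27, 12.31 and 12.76 in IUGR replicates 1 to 4. Sham replicate 1 lay above IUGR replicate 2, so the groups overlapped, although all 21 genes had a higher group mean in IUGR. The mean of 27 acinar genes, which encode digestive enzymes and their regulators, was 9.70, 10.04, 10.23 and 8.90 in the sham litters and 10.75, 10.59, 10.28 and 11.17 in the IUGR litters, without overlap. Sham replicate 4 had the lowest liver and acinar means and the highest mean of 16 islet endocrine genes, 11.94, where the remaining sham litters had 10.42 to 10.54 and the IUGR litters 10.79 to 11.29. Islet transcripts were abundant in every litter, with Ins2, an insulin gene, between 13.67 and 14.24 and Gcg, the glucagon gene, between 13.33 and 13.94. Duct markers (13 measured, all higher, with Krt8 past the threshold on adjusted p) had means of 9.61 to 10.27 in sham and 10.79 to 11.33 in IUGR litters. Erythroid markers (9 measured, all lower) had means of 11.71 to 12.40 in sham and 10.78 to 12.07 in IUGR litters. The interquartile range of the gene values was 3.63 in sham replicate 1 and 3.06 to 3.23 in the other sham litters, against 3.53 to 3.62 in the IUGR litters. In pooled tissue of this kind, a change in the share of cells of a type cannot be told apart from a change in RNA per cell.

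Gnmt was at 7.05, 6.87, 6.92 and 6.63 in sham replicates 1 to 4, and at 8.89, 8.37, 9.30 and 9.39 in IUGR replicates 1 to 4. Every IUGR litter lay above every sham litter, with a gap from 7.05 to 8.37. The means were 6.87 ± 0.18 and 8.99 ± 0.47 (SD, n = 4 litters each), a difference of 2.12 on the log2 scale, or 4.35-fold. The sham litters spanned 0.42, while their liver marker means ran from 8.94 to 11.49. Within each group, Gnmt and the liver marker mean put the litters in the same order. Pearson's r between them was 0.71 after each group's mean was subtracted and 0.85 over all 8 litters, given as a description. All sham values of Gnmt lay below the array medians of 7.70 to 7.81 over all probe sets. The file holds no detection call, so how far Gnmt stood above background in the sham litters is unknown.

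**Figure D1:**
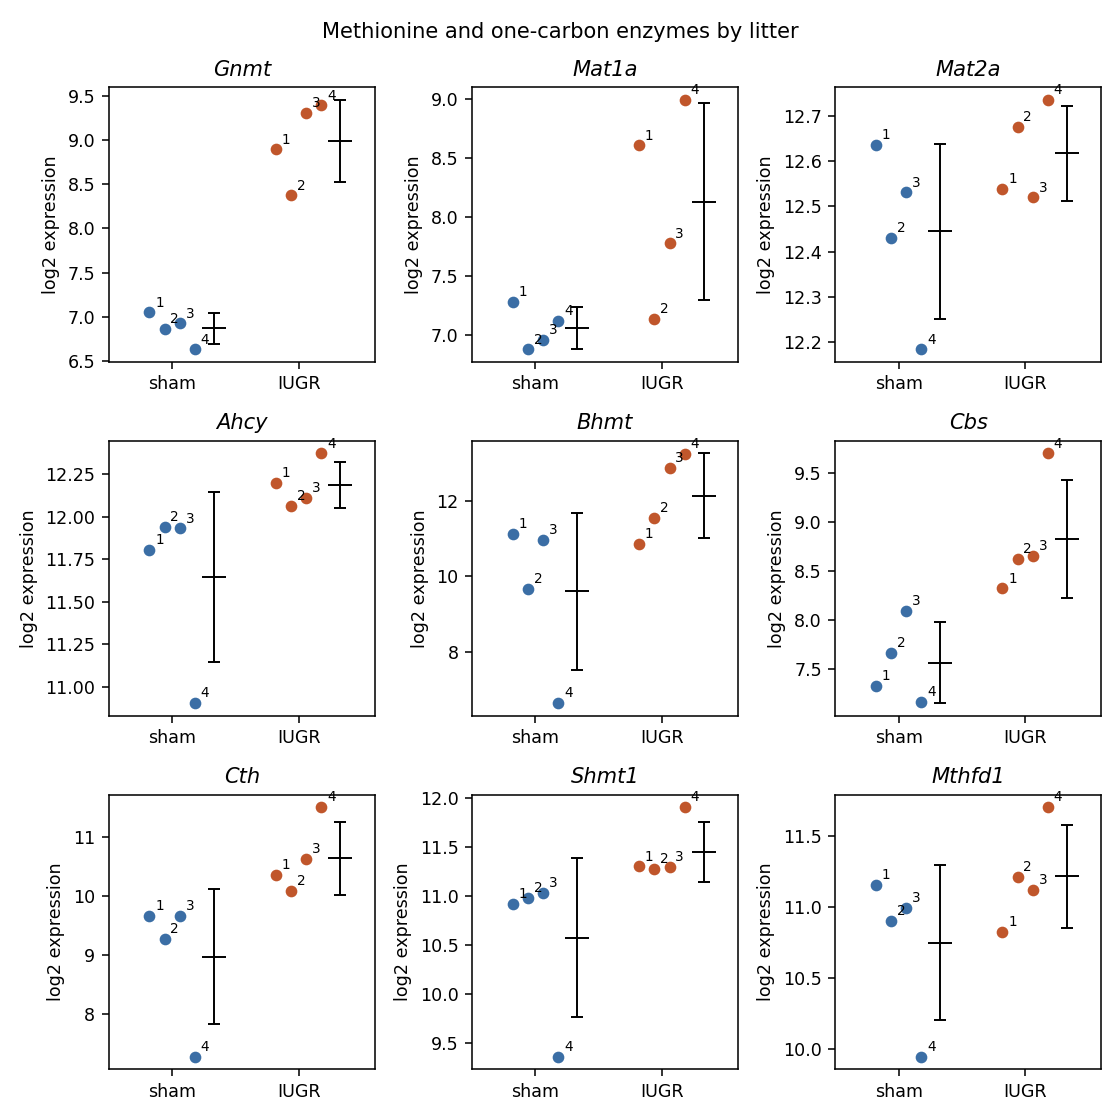
Log2 expression of the 9 enzymes in each litter, with sham litters in blue, IUGR litters in orange and the replicate number beside each point; bars are the mean and SD of 4 litters, and each panel has its own axis. Gnmt, Ahcy, Cbs, Cth and Shmt1 show no overlap between the groups, and sham replicate 4 is lowest for all enzymes except Mat1a.

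None of the other 8 enzymes passed the threshold, an adjusted p under 0.05 over all 14506 genes in limma, at which 0.248% of all genes were called in either direction. All 8 had a higher mean in IUGR islets, with a median difference of 0.97 on the log2 scale. The median of all genes was 0.04, or 0.14 without the 30% dimmest genes. At an unadjusted p under 0.05, 6 of the 8 were higher, against 15.4% of all genes. In 4 of the 8 (Ahcy, Cbs, Cth and Shmt1) the IUGR litters all lay above the sham litters, as they did in 10.0% of all genes. At that unadjusted level 19 of 21 liver, 16 of 27 acinar, 10 of 13 duct and 1 of 16 islet markers were higher. The IUGR litters all lay above the sham litters in 1 of 21 liver, 8 of 27 acinar, 8 of 13 duct and 0 of 16 islet markers. Duct markers were not used as a covariate. Without sham replicate 4 the median of the 8 was 0.78.

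The 2 methionine adenosyltransferase genes, which make S-adenosylmethionine, had different values. Mat1a was at 7.28, 6.88, 6.96 and 7.12 in the sham litters and at 8.61, 7.13, 7.78 and 8.995 in the IUGR litters. IUGR replicate 2 lay within the sham range, and replicates 1 and 4 lay highest. All sham values of Mat1a and that of IUGR replicate 2 lay below the array medians of 7.70 to 7.81 over all probe sets. How far they stood above background is unknown, as for Gnmt. The means were 7.06 ± 0.18 and 8.13 ± 0.84 (SD, n = 4 each), with a difference of 1.07 ± 0.37 (SE, limma adjusted p = 0.142). Mat2a was at 12.64, 12.43, 12.53 and 12.18 in the sham litters and at 12.54, 12.68, 12.52 and 12.74 in the IUGR litters, and the groups overlapped. Its difference was 0.17 ± 0.11 (SE, limma adjusted p = 0.352), with a 95% confidence interval from -0.09 to 0.43. A further Mat2a probe set differed by 0.20. Whether the Mat1a and Mat2a differences themselves differ was not tested.

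Ahcy, which hydrolyses S-adenosylhomocysteine, was at 11.81, 11.94, 11.93 and 10.90 in the sham litters and at 12.20, 12.06, 12.11 and 12.37 in the IUGR litters. Every IUGR litter lay above every sham litter, and sham replicate 4 stood 0.99 below the mean of the other sham litters. The difference was 0.54 ± 0.23 (SE, limma adjusted p = 0.184), and 0.29 without sham replicate 4.

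Bhmt, the betaine-dependent remethylation enzyme, had the largest difference of the 9 and the widest spread. It was at 11.14, 9.67, 10.97 and 6.63 in the sham litters and at 10.87, 11.56, 12.90 and 13.27 in the IUGR litters. IUGR replicate 1 lay below sham replicates 1 and 3, so the groups overlapped. The means were 9.60 ± 2.09 and 12.15 ± 1.12 (SD, n = 4 each), with a difference of 2.55 ± 1.01 (SE, limma adjusted p = 0.166). Without sham replicate 4 the difference was 1.56. The spread among the sham litters alone, 4.51, exceeded the difference between the groups. Bhmt2, which encodes a related methyltransferase and is named after its values were seen, differed by 1.05 (limma adjusted p = 0.232).

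The 2 transsulfuration enzymes were higher in every IUGR litter than in any sham litter. Cbs, which joins homocysteine and serine to cystathionine, was at 7.32, 7.66, 8.09 and 7.16 in the sham litters and at 8.32, 8.62, 8.65 and 9.69 in the IUGR litters. Its difference of 1.26 ± 0.32 (SE) had the smallest adjusted p of the 8 (0.104, limma), with a 95% confidence interval from 0.53 to 1.99. In sham replicates 1, 2 and 4, Cbs lay below the array medians of 7.70 to 7.81 over all probe sets. How far Cbs stood above background there is unknown, as for Gnmt. Cth, which releases cysteine from cystathionine, was at 9.66, 9.28, 9.66 and 7.27 in the sham litters and at 10.35, 10.08, 10.62 and 11.50 in the IUGR litters. Its difference was 1.67 ± 0.56 (SE, limma adjusted p = 0.138), and 1.11 without sham replicate 4, which stood 2.26 below the mean of the other sham litters. With array weights, Mat1a (adjusted p = 0.037), Cbs (0.031) and Cth (0.029) passed in limma, in a fit that called 6358 of 14506 genes.

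The cytosolic folate enzymes showed smaller differences than Cbs and Cth. Shmt1, which moves a one-carbon unit from serine to folate, was at 10.92, 10.99, 11.04 and 9.36 in the sham litters and at 11.30, 11.28, 11.30 and 11.91 in the IUGR litters. Its difference was 0.87 ± 0.38 (SE, limma adjusted p = 0.188), and 0.47 without sham replicate 4. Mthfd1, which interconverts folate one-carbon forms, was at 11.16, 10.90, 11.00 and 9.94 in the sham litters and at 10.83, 11.22, 11.12 and 11.71 in the IUGR litters. The groups overlapped, and the difference was 0.47 ± 0.29 (SE, limma adjusted p = 0.323), or 0.20 without sham replicate 4. A dimmer Mthfd1 probe set differed by 0.08. Mean levels of 17 replication and mitosis genes were lowest in sham replicate 4, at 10.68, with 11.29 to 11.40 in sham replicates 1 to 3 and 11.08 to 11.42 in the IUGR litters. That litter was also lowest for Shmt1 and Mthfd1, and the part of cell division in these values was not tested.

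Alb, the albumin gene, is a reference for liver transcripts but sat close to the top of the scale. It was at 13.92, 12.95, 13.78 and 11.69 in the sham litters and at 13.98, 13.81, 13.95 and 13.96 in the IUGR litters, where the highest values of the arrays were 14.15 to 14.44, so a difference can be compressed. Afp, the fetal serum protein, was between 11.39 and 13.34 in the sham litters and between 13.32 and 13.59 in the IUGR litters. Sham replicates 1 and 3 had Alb and Afp close to the IUGR litters, and their Gnmt was 7.05 and 6.92. On the mean of 21 liver genes they were at 11.49 and 10.94, with the IUGR litters at 11.27 to 12.76. Sham replicate 3 was thus below every IUGR litter, and sham replicate 1 above IUGR replicate 2 only. Bhmt in the same sham litters was 11.14 and 10.97, next to 10.87 and 11.56 in IUGR replicates 1 and 2.

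With Alb in the fit as a covariate, Cbs differed by 1.07 ± 0.38 (SE) and Mat1a by 1.01 ± 0.47. In the same fit Bhmt was at 0.84 ± 0.62, Cth at 0.75 ± 0.36, Shmt1 at 0.27 ± 0.26, Ahcy at 0.18 ± 0.17, Mthfd1 at 0.04 ± 0.23 and Mat2a at 0.02 ± 0.10. With the liver marker mean as a covariate, Cbs differed by 0.83 ± 0.46 and Mat1a by 0.53 ± 0.53, while Cth was at 0.17 ± 0.51 and Bhmt at -0.26 ± 0.86. With the acinar marker mean, Mat1a differed by 0.71 ± 0.57, Cbs by 0.50 ± 0.36, Bhmt by 0.27 ± 1.21 and Cth by 0.11 ± 0.49, and the other 4 lay between -0.27 and -0.06. The median of the 8 was 0.05 with the liver and 0.03 with the acinar covariate. Gnmt, given as a description only, was at 1.96 with Alb, 1.63 with the liver mean and 1.89 with the acinar mean. None of the 8 passed with any of the 3 covariates (limma adjusted p from 0.295 to 0.997). Both marker means were on average higher in the IUGR litters, so marker level and group cannot be fully told apart in these fits.

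**Figure D2:**
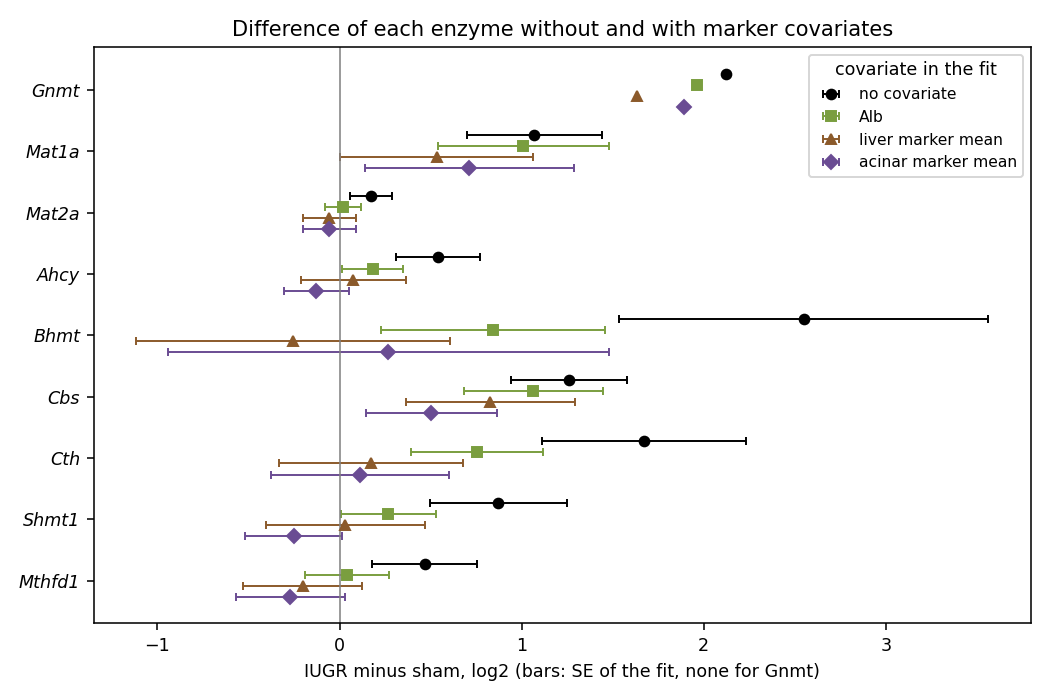
Difference between IUGR and sham litters on the log2 scale for each enzyme, with no covariate and with Alb, the liver marker mean or the acinar marker mean in the fit; bars are the SE of the fit over 8 litters, drawn for all enzymes but Gnmt, on which the set was selected. Bhmt runs from 2.55 with no covariate to -0.26 with the liver mean, and Cbs from 1.26 with no covariate to 0.50 with the acinar mean.

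A sham and an IUGR litter of nearly equal marker level can also be set side by side, as single arrays with no replicate. Sham replicate 1 and IUGR replicate 2 had the closest liver means, 11.49 and 11.27, and acinar means of 9.70 and 10.59. In that pair Gnmt was higher by 1.32 and Cbs by 1.30 in the IUGR litter. Bhmt was higher by 0.42, Cth by 0.42, Shmt1 by 0.36, Ahcy by 0.25 and Mthfd1 by 0.06, and Mat1a was at -0.15. Sham replicate 3 and IUGR replicate 3 had the closest acinar means, 10.23 and 10.28, and liver means of 10.94 and 12.31. There Gnmt was higher by 2.38, Bhmt by 1.93, Cth by 0.96, Mat1a by 0.82 and Cbs by 0.55, and Mat2a was at -0.01. Gnmt, Ahcy, Cbs, Cth and Shmt1 did not overlap between the groups. Any such pair therefore shows them higher in the IUGR litter, and only the sizes are of use here.

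**Figure D3:**
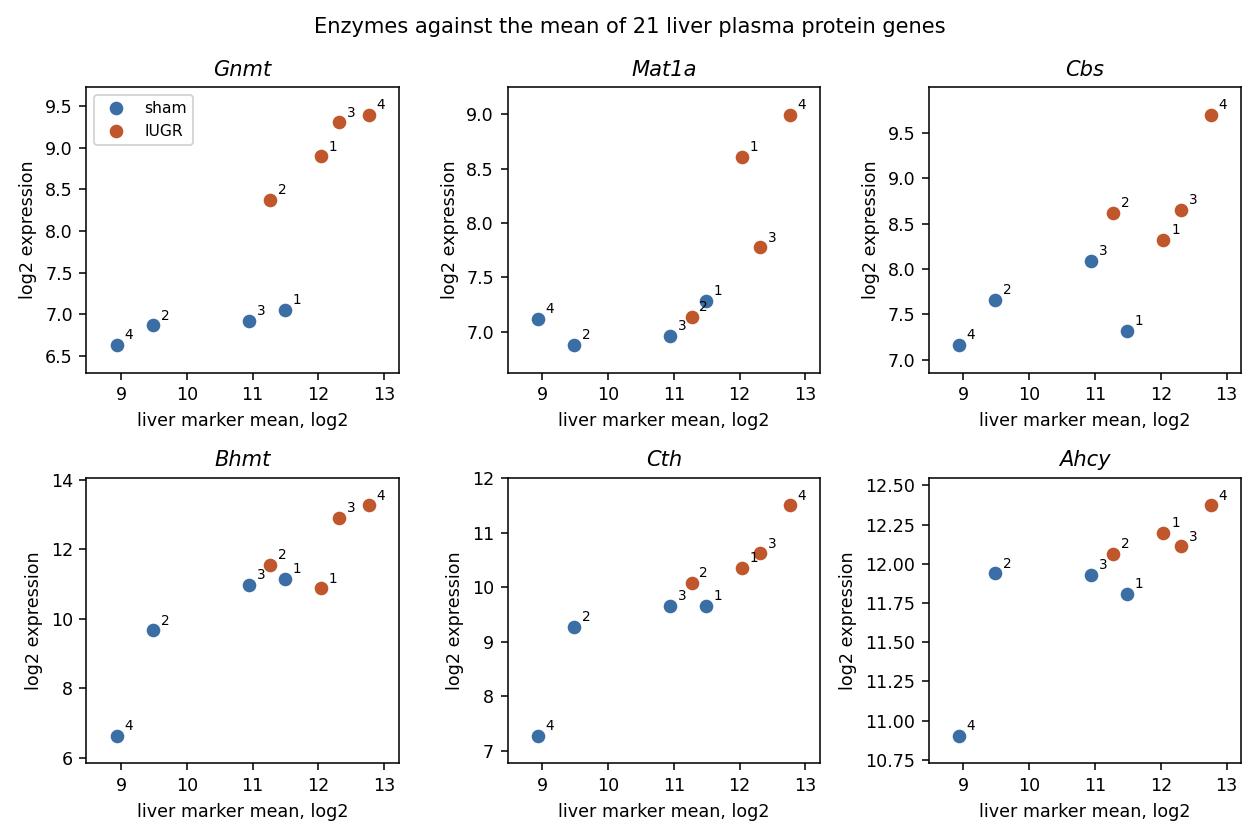
Log2 expression of 6 enzymes against the mean of 21 liver plasma protein genes in the same litter, with sham litters in blue and IUGR litters in orange and the replicate number beside each point. Gnmt stays between 6.63 and 7.05 over the sham litters while their liver mean runs from 8.94 to 11.49. Litters of each group come in the same order for Gnmt and the liver mean. Bhmt runs from 6.63 to 11.14 over the sham litters.

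Genes with the pattern most like Gnmt were found by Pearson's r over the 8 litters, among the 7253 genes brighter than the median gene. The closest were Wwox (r = 0.988), Ggt1 (0.985), Lonp2 (0.983), Ciao3 (0.982) and Appl2 (0.982). This measure includes the difference between the groups on which Gnmt was selected, so no test is given for these genes. Wwox, an oxidoreductase gene, differed by only 0.25, and Ggt1, the gamma-glutamyltransferase that begins the breakdown of glutathione, by 1.17. After each group's mean was subtracted, so that only differences between litters of a group counted, the closest were Hgfac (r = 0.968), Hsd17b11 (0.967), Gstm1 (0.966), C8g (0.959) and Tbc1d24 (0.959). Hgfac, a serine protease made in liver that activates hepatocyte growth factor, was at 8.93, 8.59, 8.74 and 7.81 in the sham litters and at 10.31, 9.36, 10.78 and 11.31 in the IUGR litters. C8g, a complement component, was between 9.06 and 10.12 in the sham litters and between 9.96 and 11.56 in the IUGR litters. All litters of a group share 1 array type and differ in marker levels and signal range, and r over 8 litters is a description.

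Of 83 other genes of the pathway in 6 lists, 73 were measured, and none passed the threshold in limma. Of the 73, 63 had a higher and 10 a lower mean in IUGR islets, with a median difference of 0.37. That median was 0.25 without sham replicate 4, 0.17 after quantile normalization, 0.03 with the liver covariate and -0.0028 with the acinar covariate. At an unadjusted p under 0.05, 21 of the 73 (28.8%) were higher and 3 lower, where 15.4% of all genes were higher and 10.7% lower. Without sham replicate 1, the litter with the widest signal range among the sham litters, 11 of the 73 passed, in a fit that called 2738 genes. Without IUGR replicate 2, 1 passed, Aldh1l1.

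Among 11 other methionine cycle and methyl donor genes all were higher, by a median of 0.55, or 0.20 with the liver and 0.27 with the acinar covariate. Mmachc, which processes vitamin B12, was at 10.56, 10.60, 10.62 and 9.91 in the sham litters and at 11.12, 11.07, 10.96 and 11.56 in the IUGR litters, a difference of 0.75 ± 0.20 (SE, limma adjusted p = 0.109). Mtrr, which reactivates methionine synthase, differed by 0.57 (adjusted p = 0.141). Sardh, which removes the methyl group that Gnmt puts on glycine, differed by 0.56 (limma adjusted p = 0.140), with sham values of 8.74 to 9.17 and IUGR values of 9.03 to 9.86.

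Of 16 other folate genes, 14 were higher and 2 lower, with a median of 0.38, which was 0.19 after quantile normalization and 0.03 with the acinar covariate. Aldh1l1, which oxidises formyl-folate and is abundant in liver, was at 7.82, 7.82, 7.86 and 7.65 in the sham litters and at 8.69, 8.04, 8.84 and 9.28 in the IUGR litters. Like Gnmt it was nearly flat over the sham litters, with a span of 0.21, and its difference was 0.92 ± 0.23 (SE, limma adjusted p = 0.103). The sham values of Aldh1l1 lay close to the array medians of 7.70 to 7.81 over all probe sets. How far they stood above background is unknown. Mthfs, which returns a folate storage form to use, differed by 0.60 (adjusted p = 0.096), and Ggh, which trims folate chains, by 0.77 (adjusted p = 0.134). The mean of the folate list was 8.94 to 9.56 in sham and 9.54 to 9.95 in IUGR litters, and sham replicate 1 lay above IUGR replicate 1.

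Genes of serine synthesis and glycine cleavage were higher in 9 of 10, by a median of 0.45, which was 0.26 without sham replicate 4, -0.02 with the liver and -0.06 with the acinar covariate. Psat1, a transaminase of serine synthesis, differed by 0.86 (limma adjusted p = 0.149), with 10.49 in sham replicate 4, 11.71 to 12.03 in sham replicates 1 to 3 and 12.17 to 12.60 in the IUGR litters. Without sham replicate 4 Psat1 differed by 0.52. Dld and Gcsh, parts of the glycine cleavage system, differed by 0.59 and 0.40, with Dld at 0.37 without that litter. Of 12 transsulfuration, cysteine and taurine genes, 10 were higher, with a median of 0.32, which was 0.16 after quantile normalization and -0.02 with the liver covariate. Gss, the glutathione synthetase, differed by 0.78 (limma adjusted p = 0.135) and Got1, a cytosolic aminotransferase, by 0.86, or 0.55 without sham replicate 4. Cdo1, which oxidises cysteine, went the other way, at 11.38 to 11.83 in sham and 10.53 to 11.39 in IUGR litters, a difference of -0.51 (limma adjusted p = 0.151).

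Other methyltransferases that use S-adenosylmethionine were mixed, with 5 of 9 higher and 4 lower and a median of 0.11. That median turned to -0.06 without sham replicate 4, -0.12 with median centring, -0.08 with the liver and -0.24 with the acinar covariate. Gamt, which methylates guanidinoacetate to creatine, differed by 0.82 and As3mt, which methylates arsenic, by 0.80 (limma adjusted p = 0.142 and 0.128). Nnmt, which methylates nicotinamide, was at 6.90 to 7.36 in sham and 6.65 to 6.91 in IUGR litters, a difference of -0.35 (limma adjusted p = 0.142). All Nnmt values lay below the array medians of 7.70 to 7.81 over all probe sets, and how far they stood above background is unknown. The 15 polyamine and methionine salvage genes had a median of 0.23, with 14 higher. Their median was 0.13 without sham replicate 4, 0.05 after quantile normalization, -0.0023 with median centring and -0.03 with the liver covariate. Mri1, an isomerase of methionine salvage, was at 8.35, 8.41, 8.49 and 8.32 in the sham litters and at 8.79, 8.81, 8.82 and 9.01 in the IUGR litters. Its difference of 0.46 ± 0.08 (SE) had the smallest adjusted p of the 73 genes (0.067, limma). Paox, which oxidises acetylated polyamines, differed by 0.54 ± 0.11 (SE, limma adjusted p = 0.077), also without overlap. Mri1 and Paox differed little between sham litters, by 0.17 and 0.19.

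**Figure D4:**
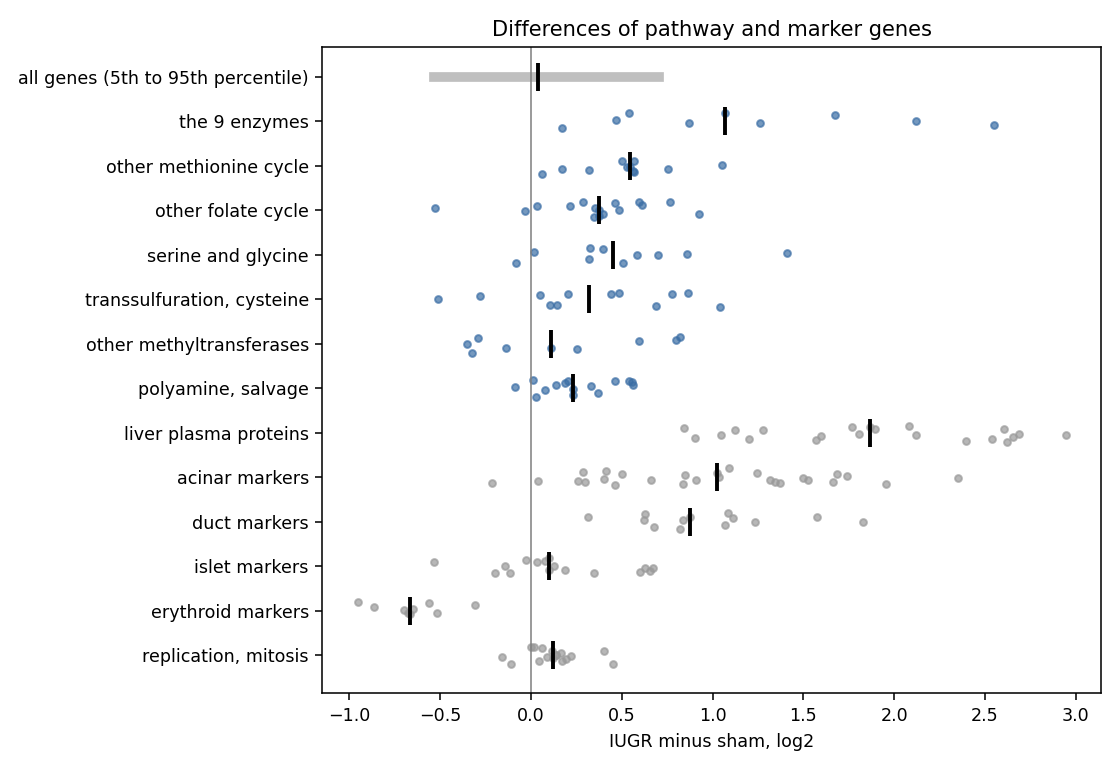
Difference between IUGR and sham litters on the log2 scale, with 1 point per gene, for the 9 enzymes, the 6 lists of other pathway genes (blue) and 6 of the 7 marker lists (grey); black ticks are medians and the grey bar spans the middle of all genes. The 9 enzymes are all above 0, from 0.17 to 2.55, and the liver markers run from 0.84 to 2.94.

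The hepatocyte enzyme list was uneven, with 9 of 14 higher, 5 lower and a median of 0.64. At an unadjusted p under 0.05 in limma, 6 of the 14 (42.9%) were higher and 0 lower, where 15.4% of all genes were higher. The median was 1.36 without the 30% dimmest genes. Hpd, a tyrosine-degrading enzyme, was between 8.01 and 10.97 in sham and 10.53 and 12.57 in IUGR litters, a difference of 2.32 (limma adjusted p = 0.132). Tat, Tdo2 and Asgr1, named after their values were seen, differed by 0.03, -0.06 and -0.14, with group means between 5.67 and 6.47. Those means lay below the array medians of 7.70 to 7.81 over all probe sets, so a change in these genes may not be visible. Cps1, a urea cycle enzyme, was at 7.75, 10.90, 6.63 and 10.16 in the sham litters and at 12.61, 10.56, 10.55 and 11.26 in the IUGR litters, an order that differed from that of Alb. The part of liver, acinar or duct transcripts in the differences of the 9 enzymes was not tested.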

How the data were processed

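Islets of 4 sham and 4 IUGR litters were measured on 1 array each. Per the labels' protocols RNA was isolated with RNAzol B, and per the submitters' processing notes the authors made the deposited log2 expression values with RMA (version, software and build not given in the sources used here). RMA values of dim and of very bright probe sets can understate differences. The labels name no batch. The table held 29214 probe sets, of which 15310 had exactly 1 gene in the platform annotation, 323 several and 13581 none; 15279 matched a current RefSeq identifier (GRCr8). The brightest probe set stood for a gene (527 genes had several), leaving 14506 genes.

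The deposited values were compared between the 2 groups with limma (version 3.58.1, lmFit and eBayes; R version 4.3.3) and no covariate or added normalization, with two-sided p-values adjusted over all genes by Benjamini and Hochberg. Confidence intervals used 8.21 degrees of freedom. Arrays have no read depth, and their number limits the precision. The fit was also run on simulated data. Errors there were independent between genes, so that run does not cover effects that the genes of a litter share. Named were the 9 enzymes, Alb, the 3 genes of smallest p of each pathway list, the 2 brightest of each marker list and the genes most like Gnmt. The members and lists were chosen with earlier results of these data known. Same-numbered litters were not treated as paired. Correlations of their deviations from group means ran from -0.43 to 0.10, which cannot show whether such litters were handled together. Alternatives were other normalizations, a dim filter, another prior, array weights, a replicate block, other probe set rules, 3 covariates and leaving out litters; leaving out sham and IUGR replicate 4 together was chosen after seeing the data. Figures were drawn with matplotlib 3.10.9.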

Additional observations from a re-analysis of the deposited data

Results flagged for a closer look

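Of 128 groups of 4 litters examined (named genes and list means), 12 had a litter far from the other 3, where chance flags about 1 in 20 groups. Sham replicate 4 accounted for 9 of them. Among the enzymes it was low for Ahcy (10.90), Cth (7.27) and Shmt1 (9.36). It was also low for Mmachc (9.91), Rrm2 (11.77), the serine and glycine list mean (8.80) and the replication and mitosis list mean (10.68), and high for Ins2 (14.24) and the islet marker mean (11.94). IUGR replicate 4 was high for Shmt1 (11.91) and Mri1 (9.01), and sham replicate 1 was high for Sardh (9.17). Bhmt in sham replicate 4 (6.63 against 9.67 for the next litter) did not meet the criterion, since the other sham litters were spread too. Genes of 1 litter share its array, so these are not separate events.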

How the results depend on the processing

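The difference of Gnmt, given as a description, ran from 1.63 (liver marker mean as a covariate) to 2.33 (without IUGR replicate 2). Directions of the other enzymes turned as follows: Mat2a to -0.0586 with median centring, -0.0552 with the liver and -0.0564 with the acinar covariate; Ahcy to -0.13 and Shmt1 to -0.25 with the acinar covariate; Bhmt to -0.26 with the liver covariate; Mthfd1 to -0.20 with the liver and -0.27 with the acinar covariate. Median centring moved the median of all genes from 0.04 to -0.19. Of the 8 enzymes, 0 passed in every limma fit except that with array weights, where 3 did (6 at an unadjusted p under 0.05 in the original fit); leaving out 1 litter gave 0 throughout. Of the 73 other pathway genes 32 passed with array weights, and 0 to 11 with 1 litter left out. Over all genes the count of 36 was 0 after quantile normalization (3305 at an unadjusted p under 0.05), cyclic loess (3290), all probe sets together (4044) and the liver (701) or acinar covariate (1844); 1 with median centring or Alb as a covariate; 59 without dim genes; 6358 with array weights; 9 without both replicate 4 litters; and 0 to 2738 with 1 litter left out (2738 without sham replicate 1, 157 without sham replicate 4, 43 without IUGR replicate 2, 2 without IUGR replicate 4 and 0 without any of the other 4). The replicate block gave 0 (2715 at an unadjusted p under 0.05), where the fit without it gave 36, and changed no call of the 8 tested enzymes; no same-numbered pair had a correlation over 0.1. The causes were not tested. Dim values limit what a difference can show where they may lie near background, as for Gnmt, Mat1a and most Cbs values in sham litters. Bright values such as those of Alb limit it too.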
